A study of Mus musculus with 24 samples.

Results

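Constant promoters are regions that cover a gene start and held a peak of histone H3 lysine 27 acetylation (H3K27ac) in every group of the experiment. The peaks could lie anywhere in the region, not only over the start. They were chosen by presence alone: autosomal peaks from 8 peak lists were merged wherever they overlapped by 1 bp or more, and a merged region was kept if it held a peak of every list and covered the start of a protein-coding transcript curated by RefSeq (NM entries) on mm10. Of 246108 merged regions, 4220 held a peak of every list, and 3380 of these were constant promoters. The other 840 regions with a peak of every list covered no such start. The 3380 regions held 5019 of 24860 transcript starts and 4003 of 20021 autosomal protein-coding genes, or 20% of the genes (Wilson 95% interval 19.4% to 20.6%).

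The lists came from chromatin immunoprecipitation and sequencing (ChIP-Seq) of isolated quadriceps myofibers, the multinucleated cells that contract, from male and female C57BL/6 mice (C57BL/6J in the study's methods). Mice received vehicle (DMSO in PBS) or weekly prednisone, a synthetic glucocorticoid given at 1 mg/kg into the peritoneum on 1 day of each week, from 10 weeks of age per the study's methods. Prednisone groups were collected 4, 6 or 8 days after the 5th injection, so that each sex had a vehicle, a day 4, a day 6 and a day 8 group. Every group had 2 H3K27ac libraries and 1 input library of sheared chromatin without immunoprecipitation, and 1 peak list per group was analysed, so the values below have no replicate error and no p-value is given. The fibers were freed with collagenase, and a bulk list cannot tell fewer cells of a type from less acetylation per cell.

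H3K27ac is placed by the acetyltransferases p300 and CBP and is read by bromodomain proteins. It marks active promoters, where it flanks the nucleosome-depleted start, and active enhancers. Promoters of genes that every cell uses commonly lie in CpG islands, whereas promoters of tissue genes more often lack them and rely on nearby enhancers, which in muscle are bound by MyoD and MEF2 family factors.

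The sequences of 8 constant promoters are shown to make the shared and the rare sequence features visible. Each is the 200 bases before a start in the direction of transcription, 5′ to 3′, on mm10 (RefSeq GRCm38.p6), and was taken from the best-ranked region with a single gene that held the motif. Capitals mark the motif or its reverse complement, in this order: the GC box bound by Sp1 family factors (GGGCGG), an ETS site (CCGGAAG), an NRF1 site (GCGCANGCG), a YY1 site (AAGATGGCG), a cyclic AMP response element (TGACGTCA), the palindrome CTCGCGAG, the TATA box (TATAAA) and the glucocorticoid receptor (GR) half-site pair ACANNNTGT.
Nsd3, chr8:25601401-25601600, plus strand: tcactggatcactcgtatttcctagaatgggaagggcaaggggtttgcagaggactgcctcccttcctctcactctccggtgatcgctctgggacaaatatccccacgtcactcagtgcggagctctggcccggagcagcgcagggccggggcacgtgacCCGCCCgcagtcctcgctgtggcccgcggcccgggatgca
Nfe2l2, chr2:75704664-75704863, minus strand: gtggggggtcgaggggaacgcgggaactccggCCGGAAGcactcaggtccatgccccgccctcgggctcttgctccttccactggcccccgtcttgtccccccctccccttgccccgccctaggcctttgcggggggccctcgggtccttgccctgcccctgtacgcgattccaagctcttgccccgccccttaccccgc
Clk1, chr1:58424089-58424288, minus strand: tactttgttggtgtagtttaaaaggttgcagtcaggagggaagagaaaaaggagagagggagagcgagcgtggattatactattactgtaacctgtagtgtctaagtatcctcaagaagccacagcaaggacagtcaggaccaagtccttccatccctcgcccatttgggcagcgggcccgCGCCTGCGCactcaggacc
Kmt2e, chr5:23434264-23434463, plus strand: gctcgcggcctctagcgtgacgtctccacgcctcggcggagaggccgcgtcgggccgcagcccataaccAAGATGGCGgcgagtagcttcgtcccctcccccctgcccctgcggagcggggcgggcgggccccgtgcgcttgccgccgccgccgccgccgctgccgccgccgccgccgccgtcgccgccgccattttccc
Zfp335, chr2:164911751-164911950, minus strand: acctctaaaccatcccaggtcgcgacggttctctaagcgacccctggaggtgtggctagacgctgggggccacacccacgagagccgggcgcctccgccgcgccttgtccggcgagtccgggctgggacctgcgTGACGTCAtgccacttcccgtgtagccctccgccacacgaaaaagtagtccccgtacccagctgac
Ube2d3, chr3:135438280-135438479, plus strand: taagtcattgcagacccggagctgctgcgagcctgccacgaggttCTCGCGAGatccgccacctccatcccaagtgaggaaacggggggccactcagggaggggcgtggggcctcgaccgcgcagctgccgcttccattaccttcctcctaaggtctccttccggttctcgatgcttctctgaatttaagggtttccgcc
Mat2a, chr6:72439557-72439756, minus strand: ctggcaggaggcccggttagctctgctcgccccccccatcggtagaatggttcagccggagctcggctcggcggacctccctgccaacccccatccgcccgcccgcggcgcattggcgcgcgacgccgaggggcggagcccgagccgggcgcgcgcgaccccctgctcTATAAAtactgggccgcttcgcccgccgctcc
Nudcd3, chr11:6200452-6200651, minus strand: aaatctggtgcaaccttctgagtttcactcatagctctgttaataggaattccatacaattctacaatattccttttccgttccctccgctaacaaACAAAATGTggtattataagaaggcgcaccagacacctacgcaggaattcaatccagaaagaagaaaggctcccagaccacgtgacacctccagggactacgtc

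Depth differed between lists, and it touches every count below. The H3K27ac libraries behind a list held between 7.52 M tags (male day 4; M for mega) and 50.5 M tags (male day 6), and a list held between 17339 autosomal peaks (male day 4) and 121551 (female day 6). The female day 6 list placed 46.8% of all its tags in autosomal peaks, against 5.33% to 25.6% in the other 7 lists. Of 12 markers of the labelled tissue, myofibers, 6 had a constant promoter (Atp2a1, Tnnt3, Ckm, Mylpf, Pvalb and Ryr1), beside 20% of all genes. Acta1, Ttn and Myh4 had peaks of 7 lists, Neb and Myh2 of 1 to 6, and Myh1 of none. Among markers of other cells, 5 of 10 endothelial markers had a constant promoter (Egfl7, Flt1, Cldn5, Pecam1 and Cdh5), as had 2 of 7 satellite cell markers (Sdc4 and Itga7) and 1 of 4 Schwann cell markers. In 0 of the 5 endothelial regions did any base lie in peaks of all 8 lists, against 4 of the 6 myofiber marker regions. None of 8 fibro-adipogenic, 9 immune, 6 mural, 4 adipocyte and 8 other-tissue markers did, although Cd68 (immune) and Pdgfrb (mural) lacked only the male day 4 list. The part that other cells play in the members was not tested.

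Genes with peaks of all lists outnumbered those with peaks of 7. By the merged region of their starts, 6488 genes (32.4%) had a peak of none of the lists, 2047 (10.2%) of 7 and 4003 (20%) of all 8, while each number from 1 to 6 had between 979 and 1609 genes. The pattern depended on what counted as shared: with peaks required over a start itself, 1334 genes (6.66%) had all 8 lists and 1557 had 7. Among the 3380 constant promoters, 1205 (35.7%) had a start that lay in a peak of every list. A base common to peaks of all 8 lists was found in 2543 (75.2%), and in the other 837 no single base lay in peaks of all 8.

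**Figure D1:**
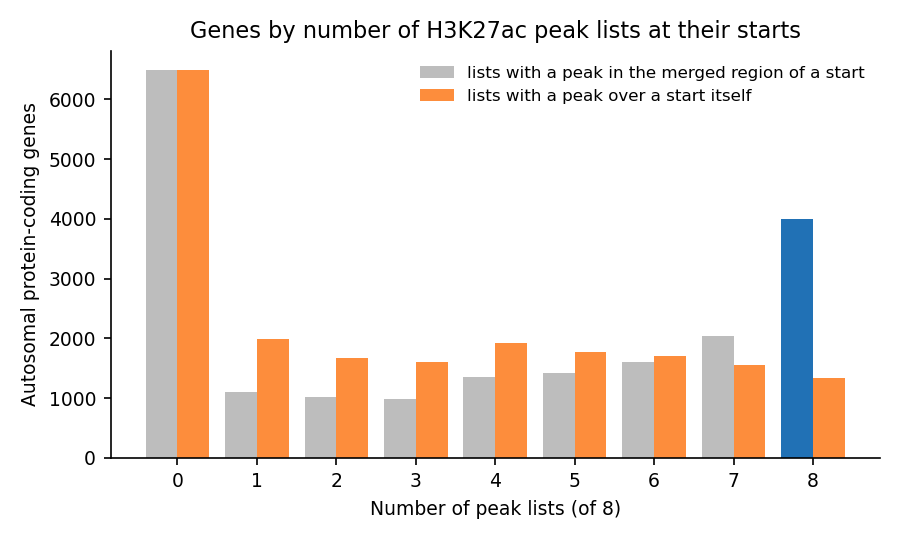
Autosomal protein-coding genes (y axis, count) by the number of peak lists at their starts (x axis, 0 to 8), by merged region (grey, with constant promoters in blue) and by a peak over a start itself (orange). The blue bar stands at 4003 genes and the orange bar beside it at 1334.

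Which list was missing just outside the rule followed depth only in part. Of 1845 promoter regions with peaks of exactly 7 lists, 605 (32.8%) lacked the male day 4 list and 589 (31.9%) the female vehicle list, whose libraries held 27.5 M tags. Another 393 lacked the male day 6 list, although it was the deepest, and 226 the male day 8 list. Only 25 lacked the male vehicle list, 6 the female day 6 list, 1 the female day 4 list and 0 the female day 8 list. At the edge, 623 members (18.4%) were held in by a male day 4 peak at that list's lowest score, 7 on the caller's scale, which is not adjusted for depth. Prex2, Lmbrd1, Bag2 and Osgepl1 are among the first of these in genome order. Just outside, Hjurp, Tmcc2, Oxa1l and Taf13 lacked only a male day 4 peak and scored at least 18 in each of the other 7 lists, and Sfi1 lacked only a male day 8 peak and scored at least 36 elsewhere. Sfi1 had 369 normalized tags per kb of peak in male vehicle and 183 in female vehicle, where the highest members had 90.7 and 50.2. Of the lists with a Sfi1 peak, only female day 6 had a higher member (362 against 327). The cause of this high signal was not tested.

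Constant promoters were mostly single-gene regions of a few kilobases. The median width was 4177 bp (quartiles 2772 and 7938 bp, range 1027 to 82328 bp), and 183 regions reached 20 kb. One gene started in 2780 regions, 2 genes in 545 and 3 or more in 55, with at most 5. The region with Eno3, muscle enolase, was one of those with 5, holding also Pfn1, Rnf167, Slc25a11 and Spag7. The share of genes with a constant promoter ran from 15.7% on chromosome 13 to 26.0% on chromosome 11. Where a common stretch existed, the longest per region had a median of 539 bp (quartiles 372 and 827 bp).

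Among the longest stretches in peaks of every list were those at a transcriptional regulator of muscle and at immediate-early and clock genes. Mef2d, a MEF2 family factor, had the longest, 6051 bp, within a region of 48101 bp at chr3:88130795-88178895. Per1, a circadian repressor and known glucocorticoid target, had 5165 bp in a region shared with Vamp2. Setd1b, an H3K4 methyltransferase whose region also held the start of Rhof, had 4561 bp, and Junb, an AP-1 subunit, had 4534 bp.

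Signal was compared as normalized tags (tags scaled to 10 M per list) per kb of called peak, summed over a region's peaks in a list. The 10 most evenly high members were those whose lowest rank over the 8 lists was best. Nsd3, an H3K36 methyltransferase at chr8:25600246-25603583, came first and ranked 187 of 3380 or better in every list. Its level was 55.3, 49.2, 30.1 and 30.4 tags per kb in the male vehicle, day 4, day 6 and day 8 lists, and 32.3, 38.1, 198 and 80.3 tags per kb in the female lists in the same order. Nfe2l2, the oxidative stress regulator NRF2, at chr2:75700886-75706425, had 55.8, 59.9, 33.6 and 36.3 tags per kb in males and 29.3, 41.5, 175 and 87.5 in females. Both genes were highest in the female day 6 list, as was the median member.

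Cltc, the clathrin heavy chain, at chr11:86756045-86760319, had 63.8, 57.4, 33.0 and 29.2 tags per kb in males and 29.3, 45.3, 143 and 91.4 in females. Junb, at chr8:84973808-84983108, had 50.1, 53.7, 31.2 and 31.0 in males and 29.4, 41.9, 152 and 76.6 in females. Camk2d, a calcium/calmodulin-dependent kinase, at chr3:126595415-126598610, had 48.6, 58.8, 29.8 and 35.7 in males and 30.3, 35.5, 195 and 81.5 in females. In these 3 genes, as in the median member, the male vehicle and male day 4 lists stood above the later male lists. The head-to-head pair Hnrnpa2b1 and Cbx3, a splicing regulator and a heterochromatin protein, reached 249 tags per kb in the female day 6 list, the highest value among the 10, from 38.5 in the female vehicle list. Efcab2, Herpud1 (an endoplasmic reticulum stress gene), Arpc4 with Tada3 (an actin nucleator and an acetyltransferase adaptor) and AI597479 with Tgfbrap1 completed the 10, with lowest ranks of 265, 275, 301 and 303.

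**Figure D2:**
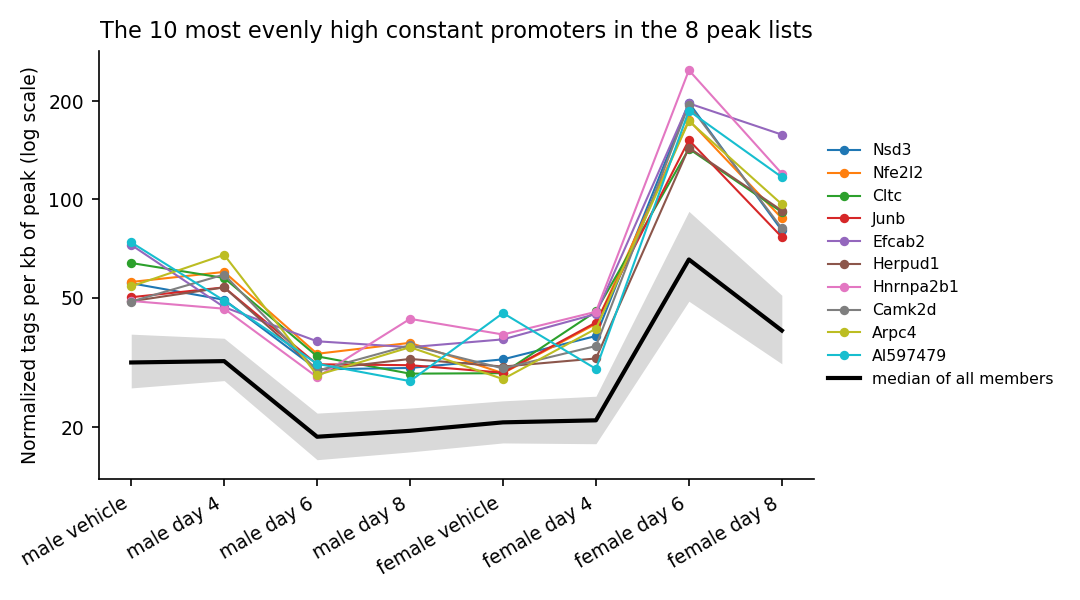
Normalized tags per kb of peak (y axis, log scale) of the 10 most evenly high constant promoters in each of the 8 lists (x axis, 1 point per list, lines join the values of 1 region), with the median (black) and quartiles (grey band) of all 3380 members. All 10 stand above the median in every list, and the median is highest, 65.4, in the female day 6 list.

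Across all members, the median level was 31.6, 31.9, 18.7 and 19.5 tags per kb in the male vehicle, day 4, day 6 and day 8 lists and 20.7, 21.0, 65.4 and 39.6 in the female lists. No member was at or near 0 in a list, since the rule requires a called peak in each, and the lowest level was 8.08 tags per kb. Peaks at the members were wider than the lists' peaks: their median width was 771 to 2823 bp, against 501 to 682 bp for all autosomal peaks. They took 16.9% (female vehicle) to 28.2% (female day 8) of the tags in autosomal peaks, while being 3.58% (female day 6) to 28.6% (male day 4) of the peaks. Their share of tags was above their share of peaks in 6 lists and below it in male day 4 (18.2% of tags, 28.6% of peaks) and male day 8 (22.2% and 24.1%). The order of members by level was shared unevenly. Over the 3380 members, Spearman's rho was 0.17 to 0.32 in the 13 pairs of lists that included the male day 4 or the female vehicle list, and 0.47 to 0.81 in the other 15 pairs, as a description of regions that share peak calling and width.

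Peaks leaned downstream of the start in each list. Position was measured in 2510 members with 1 gene, starts within 500 bp of each other and no head-to-head partner. The share of these with more peak bases downstream than upstream was 64.1% in the female vehicle list and 75.5% in the female day 8 list, with the other 6 between. The median was 344 bp upstream and 688 bp downstream in the male day 4 list and 1104 bp upstream and 1868 bp downstream in the female day 8 list. The base covered most often lay 200 to 400 bp after the start. The start itself was covered in 49.9% of these members in the female vehicle list and in 65.7% to 84.7% in the male lists, against 93.9%, 99.3% and 99.0% in the female day 4, day 6 and day 8 lists.

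The female vehicle profile was the lowest of the 8 at the start itself. Its coverage was 48.0% at 500 bp before, 49.9% at the start and 55.7% at 500 bp after, whereas in the female day 6 list it was 86.3%, 99.3% and 97.8% at the same positions. A start can lie outside a list's peaks while its region stays in the set, and only 1893 of 3380 members (56.0%) had a start in a female vehicle peak, against 3362 (99.5%) for female day 6.

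**Figure D3:**
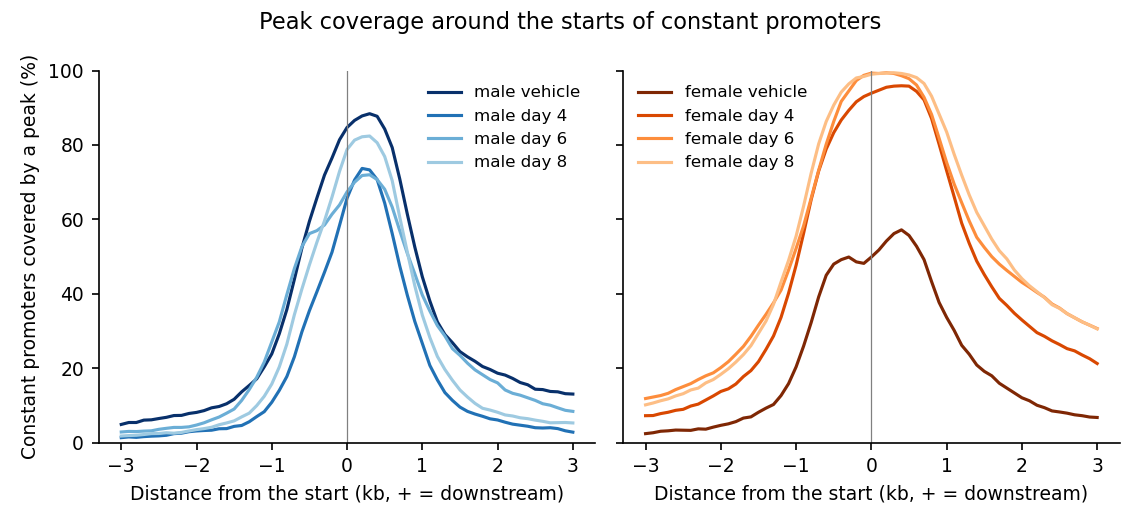
Share of 2510 constant promoters covered by a peak (y axis, percent) against distance from the start (x axis, kb, positive downstream), 1 line per list, males left and females right. The female day 6 and day 8 lines stand near 99% at the start and the female vehicle line at 49.9%.

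Starts in constant promoters were CpG-rich more often than all starts. With a GC content of at least 50% and a CpG observed-to-expected ratio of at least 0.6 in the 500 bases either side, 3921 of 5019 starts (78.1%, 95% interval 77.0% to 79.2%) were CpG-rich, against 47.7% of all starts and 14.1% (13.4% to 14.9%) of starts with no list. The 7-list starts were close, at 77.2% (75.6% to 78.8%), and the intervals overlapped. Intervals cover counting error only, and neighbouring starts share sequence. Starts in peaks of every list were CpG-rich in 87.5%. In 505 members (14.9%) no start was CpG-rich: these regions were wider, with a median of 7328 bp against 3826 bp, and 22.8% had a start in a peak of every list, against 37.9%.

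Head-to-head arrangement, in which a gene starts on the other strand within 1 kb upstream, showed the same grading. It was found for 729 of 4003 genes with a constant promoter (18.2%, 95% interval 17.0% to 19.4%), for 18.7% (17.0% to 20.4%) of 7-list genes, 8.54% of genes with 1 to 6 lists and 0.786% of genes with none, against 9.0% of all genes. Hadha and Hadhb, the 2 subunits of the mitochondrial trifunctional protein of fatty acid oxidation, are such a pair and share a region of 2392 bp.

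Motifs of CpG-island promoters were more frequent at these starts, and the TATA box and GR motif less frequent, than at all starts. Each string was searched on both strands from 250 bases before to 50 after the start, except the TATA box, searched on the sense strand with its first base 40 to 20 bases before the start. No string printed with the sequences above contains another. A match to the MEF2 or CArG motif, given below, can hold TATAAA, and a CArG match can hold CCAAT. The GC box was at 67.8% of starts in constant promoters and 48.0% of all starts, as seen upstream of Nsd3. The ETS string was at 18.8% against 11.6% (Nfe2l2), the NRF1 string at 15.6% against 8.68% (Clk1), and the YY1 string at 3.79% against 1.85% (Kmt2e). The cyclic AMP element was at 4.08% against 2.37% (Zfp335) and CTCGCGAG at 2.67% against 1.21% (Ube2d3). Each of these gaps narrowed among CpG-rich starts alone, where the GC box was at 74.6% in constant promoters and 74.3% of all. There ETS was at 22.1% and 19.3%, NRF1 at 18.9% and 16.0%, and YY1 at 4.64% and 3.36%. The cyclic AMP element was at 4.67% and 3.64%, and CTCGCGAG at 3.34% and 2.33%.

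The TATA box was at 1.02% of starts in constant promoters (95% interval 0.774% to 1.33%) and 2.55% of all. Mat2a, which makes S-adenosylmethionine, is one of the 51 starts that had it. The GR string was at 3.37% (2.90% to 3.90%), against 5.76% of all starts and 9.31% of starts with no list. Nudcd3 was the best-ranked member with it. Among CpG-rich starts the GR string was at 2.68% in constant promoters and 2.59% of all, and the TATA box at 0.944% and 0.886%. The CCAAT box was at 35.3% against 37.4%, the MyoD E-box (CAGCTG) at 14.5% against 15.8%, the MEF2 motif at 0.538% against 0.495% and the CArG box of serum response factor at 1.59% against 1.36%. A match describes these letters in this window and is no evidence of binding.

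Gene lists of the cell's basic machinery had constant promoters at 37.8% to 70.8% of their genes, beside the 20% background, and with lists of equal length all but the splicing list lay closer to the background, as given below. Of 48 translation factors, 34 (70.8%, 95% interval 56.8% to 81.8%) had one, among them Etf1, the release factor, and the initiation factors Eif3d, Eif4a2 and Eif1. Splicing factors had 38 of 64 (59.4%), led by Hnrnpa2b1, Tra2a, Hnrnpm and Hnrnpf. Nuclear oxidative phosphorylation subunits had 41 of 76 (53.9%), led by Ndufb2 of complex I, Atp5pb of ATP synthase, Uqcrh of complex III and Sdhc of complex II. The proteasome had 21 of 39 (53.8%), led by Psmd3 and Psmd11, cytosolic ribosomal proteins 33 of 76 (43.4%), led by Rpl19 and Rps23, RNA polymerase II and general factors 19 of 48 (39.6%), led by Supt16 and Ccnt1, and the writers, readers and erasers of histone acetylation 14 of 37 (37.8%), led by the reader Brd2, Brpf1, the H3K27 acetyltransferase Ep300 and Kat5.

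Many other machinery genes lacked 1 list. Of the ribosomal proteins, 26 more had peaks of 7 lists, and no gene of these 7 lists of basic machinery was without a peak of some list. The missing list varied: of the 20 oxidative phosphorylation genes at 7 lists, 11 lacked male day 4 and 7 female vehicle, while of the 26 ribosomal protein genes 8 lacked male day 8, 7 male day 4, 7 female vehicle and 4 male day 6. With a start in peaks of every list required, the counts were 13 ribosomal, 3 proteasome, 22 oxidative phosphorylation, 19 splicing and 16 translation genes, where the background over all genes was 6.66%. With lists of equal length, where 3.35% of all genes had a constant promoter, the counts were 3 of 76 ribosomal, 2 of 39 proteasome, 2 of 76 oxidative phosphorylation, 9 of 64 splicing, 2 of 48 translation, 2 of 48 polymerase and general factor and 2 of 37 histone acetylation genes.

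Muscle genes were also above the 20% background. Of 62 sarcomere genes, 30 (48.4%, 36.4% to 60.6%) had a constant promoter, among them Tpm3, Flnc, Pdlim7, Myoz3, Tpm2, Capzb, Tnni2, Cryab, Des, Tnnc2, Tpm1, Mybpc2, Xirp1, Ldb3, Pdlim5, Tnnt3, Ckm, Mylpf, Klhl40, Tmod1, Tcap, Unc45b, Myom1, Pdlim3, Myoz1, Trim54, Mb, Actn3 and Klhl41. Genes of fast fibers (the troponins Tnni2, Tnnc2 and Tnnt3) and of slow or oxidative fibers (Tpm3 and the myoglobin gene Mb) were among them. Both kinds were also outside the set, with the slow troponin Tnnt1 and the fast myosin Myh2 in 1 to 6 lists and Tnnc1 and the fast myosin Myh1 in none. Of the 12 sarcomere genes with 7 lists, 11 lacked male day 4, among them Acta1, skeletal actin, and Myh4, the fast IIb myosin. Only 7 of the 30 had a start in peaks of every list. With lists of equal length, 8 of 62 sarcomere, 4 of 35 calcium handling and 5 of 35 myogenic genes had a constant promoter, beside 3.35% of all genes.

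Calcium handling had 24 of 35 genes (68.6%, 52.0% to 81.4%), among them Camk2d, Bin1, Casq1, Tmem38a, Jph1, Calm3, Atp2a1, Camk2a, Ppp3ca, Orai1, Stim1, Jph2, Jsrp1, Hrc, Calm2, Pvalb, Camk2g, Srl, Asph, Ryr1, Ppp3cb, Cacnb1 and Sypl2. The set spans the release channel Ryr1, the reuptake pump Atp2a1 (SERCA1), the store buffer Casq1 and the store-entry pair Stim1 and Orai1. At Casq1 the level was 27.1, 28.6, 22.6 and 17.8 tags per kb in males and 18.7, 22.4, 64.6 and 44.1 in females. Myogenic regulators had 17 of 35 (48.6%, 33.0% to 64.4%), among them Mef2d, Sox6, Nfic, Mef2a, Id3, Six4, Lbx1, Nfix, Myf6, Srf, Tead1, Tcf4, Nfia, Myod1, Eya4 and Eya1. Of the 4 myogenic bHLH factors, Myod1 and Myf6, the latter active in mature fibers, had constant promoters, and Myog had peaks of 5 lists.

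The glucocorticoid receptor and its known targets had 28 of 40 genes (70%, 54.6% to 81.9%): Ptges3, Hspa8, Klf9, Per1, Hsp90ab1, Nr3c1, Fbxo32, Cebpd, Klf15, Sgk1, Cdkn1a, Stip1, Dusp1, Bcl6, Nfkbia, Zbtb16, Foxo1, Pik3r1, Glul, Cebpb, Hsp90aa1, Rhob, Foxo3, Sesn1, Trim63, Errfi1, Nr3c2 and Ddit4. Both steroid receptors that bind glucocorticoids, Nr3c1 and Nr3c2, were among them, as were the receptor chaperones Hsp90ab1, Hsp90aa1 and Ptges3. At Klf9, a direct target, the level was 36.7, 34.6, 23.5 and 25.6 tags per kb in males and 22.0, 27.1, 90.9 and 49.8 in females. The vehicle lists held peaks at all 28, by the rule. Fkbp5 had peaks of 4 lists, and Pdk4 and Mstn lacked only male day 4.

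IGF1 and PI3K signaling had 20 of 44 genes (45.5%, 31.7% to 59.9%): Insr, Akt2, Inppl1, Foxo1, Irs1, Mlst8, Pik3r1, Gsk3b, Pik3c2a, Pik3r4, Foxo3, Eif4ebp1, Rps6kb1, Irs2, Pik3ca, Grb2, Gsk3a, Tsc1, Rptor and Phlpp1. At Insr, the insulin receptor, the level was 35.1, 33.4, 31.5 and 24.5 tags per kb in males and 25, 24.9, 101 and 74.8 in females. Igf1 itself had peaks of 4 lists, Igf1r and Mtor of 6, and Akt1 lacked only female vehicle. Of 11 genes at which the study examined GR binding, a list it chose itself, 2 had a constant promoter, Pik3c2a and Pik3ca, near the background share. Akt1, Slc27a1 and Esr1 had peaks of 7 lists, Fkbp5 and Cacna1h of 4, Cidea of 2, Tnnt1 of 1, and Tnnc1 and Cidec of none.

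Metabolic, turnover and clock genes completed the lists. Glycolysis and glycogen had 26 of 37 (70.3%), led by Aldoa, Pfkm, Ldha and Eno3. Lipid metabolism had 25 of 54 (46.3%), led by Hadha, Hadhb, Pcyt1a and Ppargc1b, a PGC1 coactivator. Autophagy and protein breakdown had 32 of 47 (68.1%), among them Gabarap, Ubb and Ube2d3 and the muscle ubiquitin ligases Fbxo32 and Trim63. The circadian clock had 15 of 25 (60%), led by Per1, Dbp, Cry1 and Bhlhe40. Genes can stand in several lists, and each of these shares is read against the 20% of all genes without a test.

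**Figure D4:**
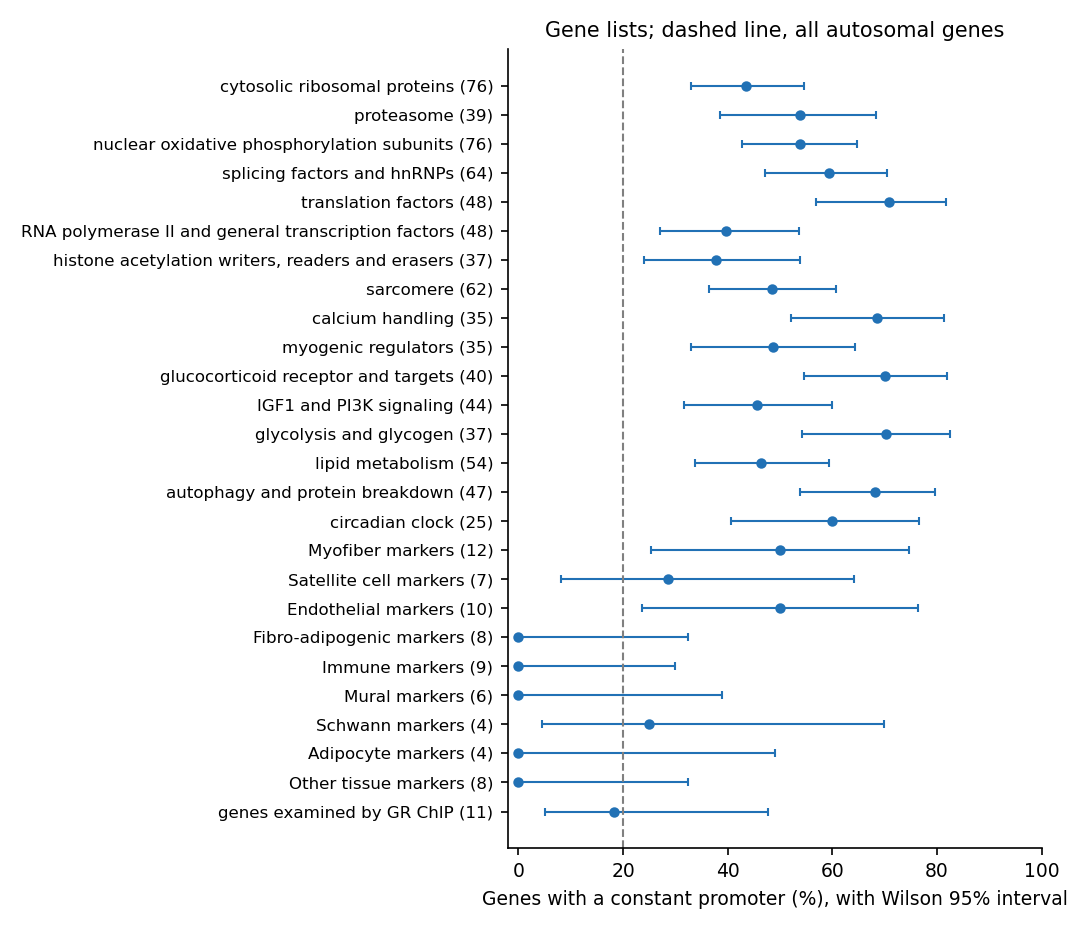
Share of each gene list with a constant promoter (x axis, percent; points with Wilson 95% intervals; number of genes found in parentheses), with all autosomal genes at 20% (dashed line). The shares run from 0 in 5 of the marker lists to 70.8% for translation factors.

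Most machinery lists had more CpG-rich starts and narrower regions than the muscle lists, without a test of the difference. Of 56 starts of splicing genes in constant promoters, 55 were CpG-rich (98.2%, 90.6% to 99.7%), and ribosomal (94.7%), proteasome (95.5%), translation (91.3%), oxidative phosphorylation (87.5%) and polymerase and general factor genes (87.5%) stood above the 78.1% of all starts in constant promoters. Histone acetylation genes did not, at 76.2%, and their regions had a median width of 5906 bp. Of 37 starts of sarcomere genes, 12 were (32.4%, 19.6% to 48.5%), with calcium handling at 53.3% and glycolysis at 59.0%. Regions of sarcomere genes had a median width of 14702 bp and those of calcium handling genes 12836 bp, against 3372 bp for ribosomal proteins and 4154 bp over the regions of all genes with a constant promoter. In the male vehicle list, peaks covered a median of 5814 bp of a sarcomere region and 1544 bp of a ribosomal one, and in the female day 8 list 13910 and 2504 bp.

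The muscle lists were not higher per kb. The median level of sarcomere members was 29.3 tags per kb in male vehicle, 18.6 in female vehicle and 43.5 in female day 6, and of oxidative phosphorylation members 38.7, 21.4 and 81.7. Tnnt3 shows the wide form, a region of 47345 bp shared with Lsp1 whose longest common stretch was 501 bp, and Rps23 the narrow one, a region of 1213 bp with a common stretch of 378 bp.

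Levels after prednisone were set against the vehicle list of the same sex for the question of whether the constant set moved with time after the last dose. The log2 ratio of tags per kb was centred on the median of all regions with peaks of both lists, a median that before centring was 0.13, -0.91 and -0.75 for the male lists (day 4, day 6, day 8) and -0.22, 0.92 and 0.37 for the female lists. The 3 comparisons of a sex share 1 vehicle list, and values of 1 list against 1 list have no error. The male members had a median log2 ratio of -0.10 at day 4 (quartiles -0.39 and 0.17), 0.13 at day 6 and 0.05 at day 8. The female medians were 0.25 (quartiles -0.03 and 0.52), 0.74 and 0.58 at the same days.

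Few male members passed 2-fold. At day 4, 29 members (0.858%) were higher and 111 (3.28%) lower, beside 1.83% and 1.97% of all 8679 shared regions. At day 6, 44 (1.30%) were higher and 19 (0.562%) lower, beside 1.05% and 1.08%, and at day 8, 18 (0.533%) were higher and 29 (0.858%) lower, beside 0.811% and 1.09%. At day 4 the share of lower members was above the background and that of higher members below it. Lower members outnumbered higher ones at day 4 under each measure tried, whereas at days 6 and 8 the larger direction depended on the measure. With tags summed over a region, 8.37% were higher and 16.6% lower at day 4, beside 14.4% and 16.4% of all shared regions, so the excess of lower members over the background was not seen on that measure. The summed shares were 12.5% and 13.1% at day 6, beside 13.7% and 16.4%, and 10.7% and 9.47% at day 8, beside 10.5% and 16.0%. With fold over input, 5.77% were higher and 9.91% lower at day 4, beside 10.1% and 7.65%. The fold shares were 2.75% and 15% at day 6, beside 14.5% and 8.80%, and 2.60% and 10.7% at day 8, beside 9.22% and 7.15%. Centring on the constant promoters, which sets their median to 0, gave 1.57% and 2.01% at day 4, 0.680% and 1.30% at day 6 and 0.444% and 1.01% at day 8, beside 2.88% and 1.16%, 0.473% and 2.24%, and 0.598% and 1.36% of all.

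Female members were more often higher than vehicle. At day 4, 111 (3.28%) were higher and 4 (0.118%) lower, beside 1.44% and 1.51% of all 11725 shared regions. At day 6, 1199 (35.5%) were higher and 5 (0.148%) lower, beside 14.5% and 10.8%, and at day 8, 704 (20.8%) were higher and 1 (0.0296%) lower, beside 7.79% and 5.84%. Centring on the constant promoters sets their median to 0, and the higher and lower shares were then 0.533% and 1.04%, 6.86% and 4.17%, and 2.40% and 2.69%, beside 0.307% and 5.71%, 2.45% and 39.2%, and 0.820% and 27.3% of all shared regions. Most members stood above the median of all shared regions, and the members' quartiles at day 6 were 0.33 and 1.23. Beside it moved the share of tags in autosomal peaks, 7.74% in female vehicle and 11.7%, 46.8% and 25.6% at days 4, 6 and 8, and the peak bases in members, at a median of 2.30, 2.74 and 2.82 times vehicle. Their part in the difference was not tested.

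**Figure D5:**
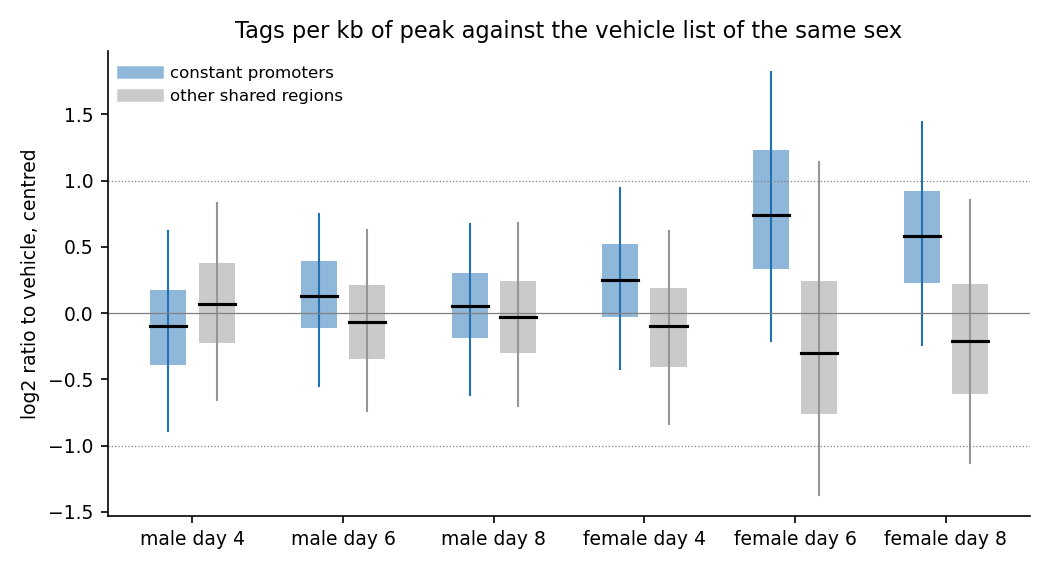
Centred log2 ratio of tags per kb to the vehicle list of the same sex (y axis) in the 6 prednisone lists (x axis), for 3380 constant promoters (blue) and the other shared regions (grey). Boxes span the quartiles, black lines are medians and thin lines run from the 5th to the 95th percentile, and dotted lines mark 2-fold. The members' median stands above that of other regions in 5 of the 6 comparisons and below it at male day 4.

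Outside the marker lists, the median log2 ratio at female day 6 ran from 1.11 for splicing genes to 0.27 for sarcomere genes. It was 1.09 for ribosomal proteins, 1.06 for oxidative phosphorylation and translation genes and 0.74 over all members. Proteasome (0.80), myogenic (0.78) and histone acetylation genes (0.69) lay near that last value. Calcium handling stood at 0.44, glycolysis and glycogen at 0.43 and the myofiber markers at 0.17. Higher by 2-fold or more were 18 of 32 ribosomal regions and 2 of 30 sarcomere regions, beside 35.5% of all members, and the difference between lists was not tested. These ratios are per kb of peak, and the peak bases in a region rose as well. Their median was 1130 bp in female vehicle and 2816 bp in female day 6 for ribosomal regions, and 3290 and 13102 bp for sarcomere regions. The part of peak length in the difference was not tested. In males the splicing, ribosomal, oxidative phosphorylation, translation and sarcomere medians lay between -0.26 and 0.11 at all days. Sdhc stood at 22.6 tags per kb in female vehicle and 204 in female day 6, and in males at 55.6, 41.3, 26.5 and 28.1 in the order vehicle, day 4, day 6 and day 8. Ckm, muscle creatine kinase, stood at 21.0 and 39.3 in the 2 female lists and at 34.2, 33.0, 19.0 and 20.1 in males.

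At day 4, 891 of 3380 members were above 0 and 449 below 0 in both sexes. In both sexes 0 members were higher by 2-fold or more, and 0 were lower by as much. These counts were not set beside all shared regions and are not read as a shared movement. The largest shared increase was at Kdm5b, an H3K4 demethylase, with log2 ratios of 1.20 in males and 0.92 in females, on levels of 12.6 and 31.8 tags per kb in male vehicle and day 4 and 12.6 and 20.5 in female. Eif4a1, a translation helicase, followed with 0.86 and 0.92, then Usp24, Aftph and Bms1, whose smaller ratio was 0.81 to 0.84. The largest shared decrease in level per kb was at Ubr4, a ubiquitin ligase, with -0.87 and -0.90, on levels of 53.2 and 31.9 in males and 26.7 and 12.3 in females. Kcmf1, Epc1, Spata6 and Adipor1, the adiponectin receptor, followed with -0.55 to -0.98 in males and -0.57 to -0.80 in females. These 10 were selected on the values given, which are a description. They are levels per kb, and peak lengths differed too. At Ubr4 peaks covered 0.802 and 0.501 kb in male vehicle and day 4, and 0.501 and 3.40 kb in female. At Usp24 they covered 2.67 and 0.679 kb in male and 0.501 and 2.75 kb in female, and at Kdm5b 0.501 and 0.628 kb and 0.664 and 1.59 kb. Female peaks covered 1.43 and 4.70 kb at Kcmf1, 0.501 and 1.78 kb at Spata6 and 1.13 and 8.31 kb at Adipor1. Summed over the region before centring, female tags rose at these 3 genes and at Ubr4, and fell at Epc1. Male tags fell at all 5. Among the increases, summed male tags fell at Usp24 and Aftph, changed little at Bms1 and rose at Kdm5b and Eif4a1. At Bms1, Usp24 and Spata6 no base lay in peaks of all 8 lists. The part of peak length was not tested. At Ubr4, Epc1, Spata6, Eif4a1, Adipor1 and Kdm5b the male day 4 score was between 7 and 10, beside that list's lowest score of 7.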

How the data were processed

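H3K27ac ChIP-Seq of myofibers gave 1 peak list per group from 2 H3K27ac libraries and 1 input library; how the 2 libraries were combined is not given in the sources used here, and the libraries were not analysed here one by one. Alignment by the authors was to mm10 (Bowtie2), and their peaks are those of HOMER findPeaks, run in histone style at a fold over input of at least 2. The submitters' processing notes name Bowtie2 2.2.6, TopHat2 2.1.0, HOMER and mm10. The deposited signal is the tag number of a peak scaled to 10 M tags. The authors' fold is the ratio of H3K27ac to input tags, and the findPeaks score is deposited unscaled. In the male day 4 and female day 6 lists the authors also give the total tags as a count, and in the other lists these are scaled to the input. Columns of p-values hold the authors' comparison with input and were not used.

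Autosomal peaks of all lists were merged at an overlap of 1 bp, and members were intersected with RefSeq NM starts. Levels are the scaled tags of a region's peaks divided by their summed length in kb, and log2 ratios to vehicle were centred on all regions with peaks of both lists. Depth was derived from the steps of low values. CpG-rich starts, head-to-head genes and motifs were read from the mm10 sequence. Of 820 symbols in 26 gene lists, 810 were found. With 1 list per group there is no replicate error and no test, and Wilson intervals cover counting error only. Scripts were tested on simulated data and recovered 20 of 20 planted quantities. The alternatives were a peak over the same start, a start within 1 kb of a common base, lists of equal length, a fold of at least 4, peaks joined within 1 kb, each list left out, another motif window, 1 start per gene, and other level measures and centring. Software was bedtools 2.31.1, samtools 1.23.1, pysam 0.24.0 and, under Python 3.11.15, scipy 1.17.1, pandas 2.3.3, matplotlib 3.10.9 and numpy 2.4.6.

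The members and gene lists were chosen with earlier results of these data known. Genes named are the 10 members whose lowest rank by level was best, the 5 longest common stretches, the 5 largest shared increases and the 5 largest shared decreases at day 4, 5 members just inside the rule and 5 genes just outside it, members of the gene lists (up to 4 by rank with values), the genes examined by GR ChIP, and the best-ranked single-gene member with each printed motif. Acta1, Myh4, Ttn and other list genes outside the set, and Sdhc, Ckm and Tnnt3 as contrasts, were named after their values were seen. Some genes that these rules select are not reported here.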

Additional observations from a re-analysis of the deposited data

Results flagged for a closer look

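The members' median log2 ratio of H3K27ac per kb to vehicle at day 4 was -0.10 in males and 0.25 in females, so that the medians of the 2 sexes lay on opposite sides of 0. This difference between the sexes was not tested, since each group has 1 list. The male day 4 list was the shallowest, at 7.52 M tags (M for mega), and its peaks covered 0.553 times the vehicle bases of a member, against 2.30 times in females. The part of depth and peak width in the difference was not tested.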

How the results depend on the processing

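The number of constant promoters depended on what counted as shared, and the CpG-rich and head-to-head shares stayed above those of all genes under each alternative for which they were computed, which leaves out NM and XM starts (3494 members, 20.2% of genes). With a peak of every list over the same start there were 1205 members and 6.66% of genes, of which 21.5% were head-to-head, 87.5% of starts were CpG-rich, and members took 9.68% of peak tags (median over the lists; 23.9% as reported). With a start within 1 kb of a common base, 13.8% of genes qualified, with 19.6% head-to-head and 85.1% CpG-rich starts. With lists brought to equal length, there were 565 members, 3.35% of genes and 6.81% of peak tags. At a fold over input of at least 4, there were 1260 members, 7.31% of genes, 14.4% head-to-head, 76.9% CpG-rich starts and 11.8% of peak tags. With peaks joined within 1 kb, 22.2% of genes and 75.7% CpG-rich starts were found. Leaving out 1 list at a time gave 3342 to 3986 members, 19.2% to 23.3% of genes, 18.1% to 18.6% head-to-head, 77.2% to 79.3% CpG-rich starts and 21.3% to 27.9% of peak tags.

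The gene counts by list moved with the rule. With a peak of every list over the same start, where the share of all genes was 6.66%, they were 13 of 76 cytosolic ribosomal proteins, 3 of 39 proteasome, 22 of 76 nuclear oxidative phosphorylation subunits, 19 of 64 splicing factors and hnRNPs, 16 of 48 translation factors, 7 of 48 RNA polymerase II and general transcription factors, 5 of 37 histone acetylation genes, 7 of 62 sarcomere, 8 of 35 calcium handling, 5 of 35 myogenic regulators, 12 of 40 glucocorticoid receptor and targets, 7 of 44 IGF1 and PI3K signaling, 7 of 37 glycolysis and glycogen, 8 of 54 lipid metabolism, 16 of 47 autophagy and protein breakdown, 4 of 25 circadian clock, 1 of 12 Myofiber markers, 0 of 7 Satellite cell markers, 0 of 10 Endothelial markers and 1 of 11 genes examined by GR ChIP. With lists of equal length, where it was 3.35%, they were 3 of 76 cytosolic ribosomal proteins, 2 of 39 proteasome, 2 of 76 nuclear oxidative phosphorylation subunits, 9 of 64 splicing factors and hnRNPs, 2 of 48 translation factors, 2 of 48 RNA polymerase II and general transcription factors, 2 of 37 histone acetylation genes, 8 of 62 sarcomere, 4 of 35 calcium handling, 5 of 35 myogenic regulators, 3 of 40 glucocorticoid receptor and targets, 0 of 44 IGF1 and PI3K signaling, 7 of 37 glycolysis and glycogen, 4 of 54 lipid metabolism, 4 of 47 autophagy and protein breakdown, 3 of 25 circadian clock, 1 of 12 Myofiber markers, 0 of 7 Satellite cell markers, 2 of 10 Endothelial markers, 0 of 4 Schwann markers and 0 of 11 genes examined by GR ChIP.

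In a motif window from 100 bases before to 50 after the start, the shares of starts were 23.1% (CCAAT box), 57.3% (GC box), 14.5% (ETS), 11.3% (NRF1), 2.83% (YY1), 3.19% (CRE), 1.79% (CTCGCGAG), 8.05% (MyoD E-box), 1.12% (GR) and 0.837% (CArG). With 1 start per gene they were 36.8% (CCAAT box), 70.0% (GC box) and 20.3% (ETS).

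With tags summed over a region, the shares of members higher and lower than vehicle, with those of all shared regions in parentheses, were 8.37% and 16.6% at male day 4 (all: 14.4% and 16.4%), 12.5% and 13.1% at male day 6 (all: 13.7% and 16.4%), 10.7% and 9.47% at male day 8 (all: 10.5% and 16.0%), 18.8% and 1.6% at female day 4 (all: 14.2% and 16.4%), 32.8% and 2.54% at female day 6 (all: 21.1% and 27.1%) and 25.5% and 1.30% at female day 8 (all: 16.5% and 21.8%). With fold over input, the shares of members higher and lower than vehicle, with those of all shared regions in parentheses, were 5.77% and 9.91% at male day 4 (all: 10.1% and 7.65%), 2.75% and 15% at male day 6 (all: 14.5% and 8.80%), 2.60% and 10.7% at male day 8 (all: 9.22% and 7.15%), 32.8% and 4.53% at female day 4 (all: 15.7% and 20.5%), 59.7% and 2.63% at female day 6 (all: 25.8% and 26.7%) and 42.5% and 4.38% at female day 8 (all: 21.2% and 22.8%). Centred on the constant promoters, the shares of members higher and lower than vehicle, with those of all shared regions in parentheses, were 1.57% and 2.01% at male day 4 (all: 2.88% and 1.16%), 0.680% and 1.30% at male day 6 (all: 0.473% and 2.24%), 0.444% and 1.01% at male day 8 (all: 0.598% and 1.36%), 0.533% and 1.04% at female day 4 (all: 0.307% and 5.71%), 6.86% and 4.17% at female day 6 (all: 2.45% and 39.2%) and 2.40% and 2.69% at female day 8 (all: 0.820% and 27.3%). At 1.5-fold, the shares of members higher and lower than vehicle, with those of all shared regions in parentheses, were 6.07% and 14.4% at male day 4 (all: 10.2% and 10%), 11.5% and 4.38% at male day 6 (all: 7.80% and 8.40%), 7.51% and 5.71% at male day 8 (all: 7.32% and 7.56%), 20.4% and 2.43% at female day 4 (all: 10.1% and 10.8%), 60% and 1.01% at female day 6 (all: 26.6% and 25.3%) and 49.6% and 0.858% at female day 8 (all: 21.2% and 19.7%). The cause of these movements was not tested.

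No paired analysis was possible because each group has 1 list and no result comes from a test. The male day 4 list had the fewest tags, and a peak absent from a list is not shown to be absent from the cells. Shares of members differ in the bases called, so a level per kb and a sum of tags can order lists differently. The depth of each library of a pair is unknown.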
